A study of Mus musculus with 8 samples.

Results

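The genes described here encode the nuclear pore complex and the receptors that carry cargo through it in mouse round spermatids, the haploid cells that arise from meiosis and later elongate into sperm. They were chosen by name as 55 genes, of which 53 had a probe set assigned to that gene alone, out of 18193 genes measured in the same way. Nup35 and Tpr were not analysed here. Where a gene had several probe sets, the level is that of its brightest probe set by mean across the 8 arrays, which applied to 41 genes, while 12 genes had 1 probe set. All values are log2 intensities of Affymetrix arrays, and every difference is mutant minus control on that log2 scale.

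The nuclear pore complex is a ring-shaped channel through the nuclear envelope, built from scaffold nucleoporins that form outer and inner rings, membrane nucleoporins that anchor it, and nucleoporins rich in phenylalanine-glycine repeats that line its channel. Import receptors of the importin beta family bind cargo in the cytoplasm, often through an importin alpha adaptor, and release it when they meet the small GTPase Ran in its GTP form in the nucleus, whereas export receptors bind cargo together with that form of Ran. In male germ cells the importin alpha subtypes are known to follow one another as differentiation proceeds, and pores are lost from much of the envelope when the spermatid nucleus condenses.

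Round spermatids came from adult 129 Sv/Ev mice with the BrdtΔBD1 allele, which removes the first bromodomain of the testis-specific chromatin reader Brdt, and from control mice of that strain, whose genotype the labels do not describe further. There were 4 mutant and 4 control arrays, each of RNA from 7 pooled animals aged 2 to 4 months, from cells separated on an albumin gradient, so an array stands for a pool and not for an animal. The comparison asks how round spermatid transcripts differ when that domain is absent from Brdt. Brdt itself was 2.66-fold lower in the mutant (log2 difference -1.41, SE 0.19, adjusted p = 0.0074), with levels of 10.29 to 11.09 on mutant and 11.72 to 12.25 on control arrays. The position of its probe set relative to the deletion was not given, so this does not check the labels.

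The RNA of control arrays 1 and 3 was of a different quality. Between 3' and 5' control probe sets of Gapdh the log2 difference was 1.68 and 2.05 there, against 0.33 to 0.94 on the other arrays. Signal of 18S ribosomal RNA was 11.2 and 8.87 on these arrays, and mutant array 1 was also high at 8.11, against 3.66 to 5.51 on the other 5 arrays. Array medians lay between 3.10 and 3.14, and values near them are close to the floor of the deposited scale. Markers of round spermatids averaged 13.5 to 13.8 on mutant arrays and 13.5 to 13.7 on control arrays, and 0 of 14 passed the limma test, also at unadjusted p under 0.05. Sertoli cell markers were higher in the mutant preparations, where 6 of 20 rose and the list averaged 5.95 to 7.44, against 4.98 to 5.76 on control arrays. The 6 were Fabp5, Aard, Defb19, Vim, Cst12 and Cldn11, with log2 differences of 1.72 to 4.01, and 12 of the 20 rose with the replicate block. Among the markers that did not pass, Amh (1.95 and 1.97 in mutant and control), Fshr (2.51 and 2.41) and Sox9 (3.80 in both) were low in both groups. Among the other lists, 1 of 13 spermatogonia markers, 2 of 7 Leydig cell markers and 1 of 13 peritubular, vascular and blood cell markers rose. The Leydig cell markers that rose were Gsta2 and Aldh1a1. The other 5, Star, Cyp11a1, Cyp17a1, Hsd3b1 and Nr5a1, did not pass and had means below 4 in both groups. Means were also below 4 in both groups for 6 spermatogonia and 8 peritubular, vascular and blood cell markers. Of the spermatocyte markers, 0 of 14 passed (6 higher and 1 lower at unadjusted p under 0.05), and no marker of any list fell. With the replicate block, 4 of 13 spermatogonia and 4 of 14 spermatocyte markers rose, the latter being Sycp3, Hormad1, Spo11 and Tex101. In whole preparations of this kind, a change in the number of cells of a type cannot be told apart from a change in RNA per cell.

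Of the 53 pore and transport genes, 3 rose and 2 fell in the mutant (limma, adjusted p under 0.05 over all genes). That is 9.43%, against 3.71% of all genes tested, of which 1.86% rose and 1.85% fell. The risers were Nup43, Nup155 and Ipo8, and the fallers were Aaas and Nup133. Of the 53, 2 had a mean below 4, the riser Ipo8 among them, against 9195 of the 18193 genes. Among the 8998 genes with a mean of at least 4, 599 changed in the same fit. At a mean of at least 4 and under 9, 3 of 17 members changed (17.6%), against 473 of 5192 genes. At a mean of at least 9, 1 of 34 members changed (2.94%), against 126 of 3806 genes. Whether the share of members differs from that of genes of like level was not tested. The median log2 difference of the 53 genes was 0.05, against -0.02 over all genes, and 31 of the differences were positive and 22 negative. At unadjusted p under 0.05 in limma, 11 of the 53 were higher and 6 lower, against 2002 and 1667 of the 18193 genes. By structure, 4 of 25 nucleoporins changed, which is 16%, and 1 of 28 receptors, Ran-cycle and mRNA export genes, which is 3.57%. With the replicate block the 2 shares were close, at 6 of 25 (24%) and 6 of 28 (21.4%). Whether these shares differ was not tested. The mutant preparations were also those with the higher Sertoli cell markers, and the part of other cells, or of RNA quality, in the members' differences was not tested.

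The replicate number of the sample titles pairs each mutant array with a control array, as described with the processing. With that number as a replicate block, 8 members passed as higher (Nup43, Nup93, Nup155, Ipo7, Ipo8, Xpo1, Xpo7 and Ranbp1) and 4 as lower (Nup133, Sec13, Aaas and Xpo5), which is 22.6% of members against 11.5% of all genes (6.6% higher and 4.94% lower). Groups without overlap were found for 12 of the 53 genes, 7 higher and 5 lower, against 12.6% of all genes (6.15% higher and 6.49% lower). The mutant array was the higher one in all 4 pairs for 15 members and the lower one for 10, against 17.7% and 18.9% of all genes. Among the 8998 genes with a mean of at least 4, 1817 passed with the block and 1613 had groups without overlap. Of those 8998 genes, 2117 were higher and 2211 lower in all 4 pairs. At a mean of at least 4 and under 9, 7 of 17 members passed with the block (41.2%), against 1380 of 5192 genes. At a mean of at least 9, 4 of 34 members passed with it (11.8%), against 437 of 3806 genes. Groups without overlap were as many among the members of each range, against 1092 and 521 genes. Without control arrays 1 and 3, 0 of the 53 genes passed in limma (8 higher and 6 lower at unadjusted p under 0.05), beside 68 of all 18193 genes. Without mutant array 1, Aaas and Nup160 passed as lower and 0 members as higher (7 higher at unadjusted p under 0.05). In that fit 371 of all 18193 genes passed, 145 as higher and 226 as lower. Counts over all genes at unadjusted p under 0.05 are not given for these fits with arrays left out.

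**Figure D1:**
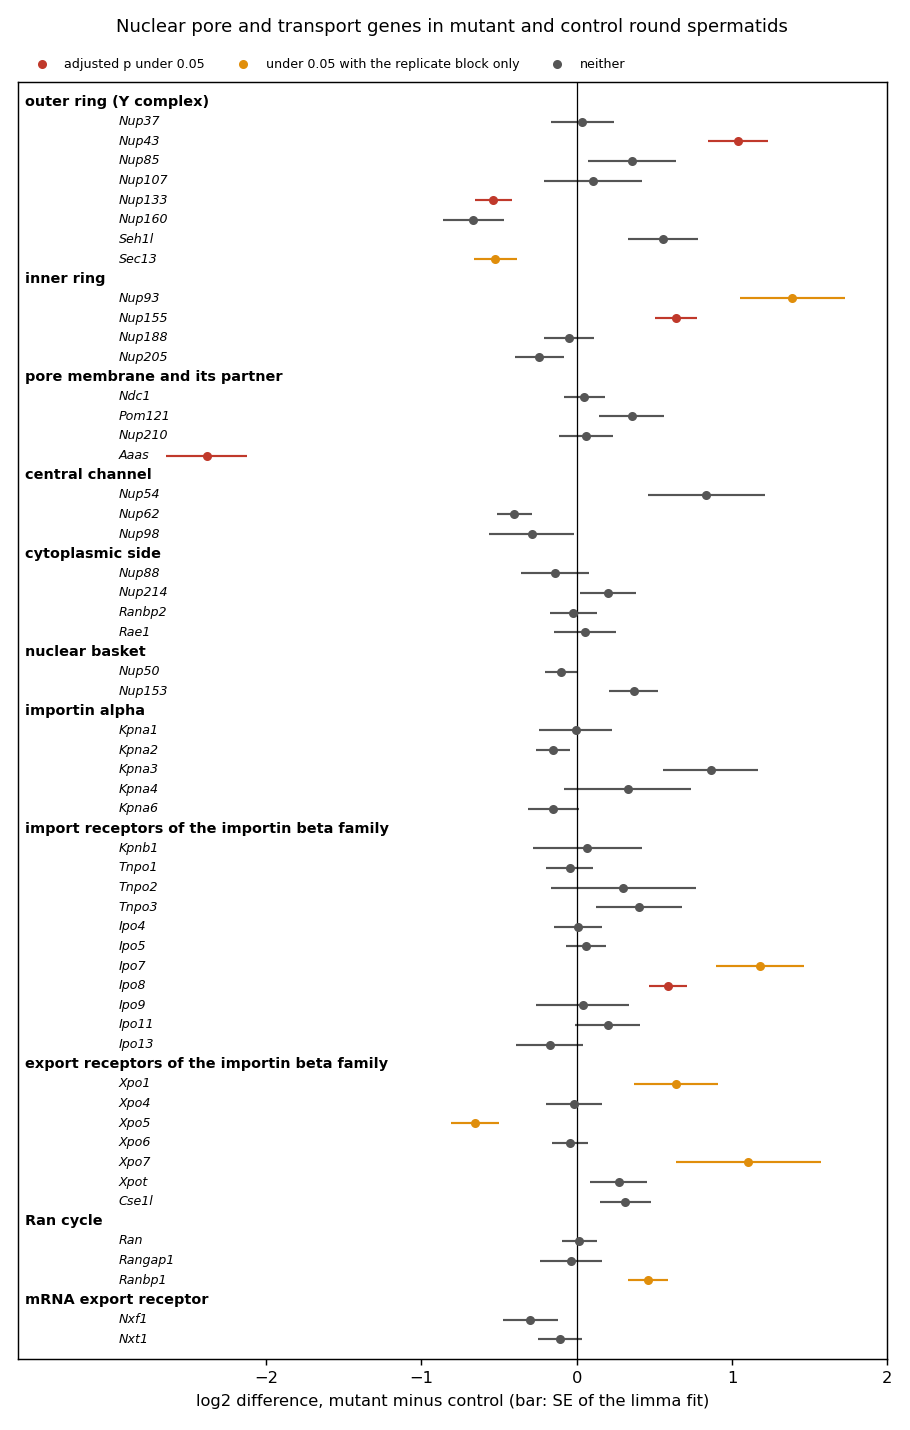
Log2 difference, mutant minus control, of each of the 53 measured pore and transport genes, grouped by role, with bars for the standard error of the limma fit over 4 mutant and 4 control arrays. Colours mark the genes that passed, those that passed with the replicate block only, and the rest, and Aaas lies farthest from 0 at -2.38.

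Aaas showed the largest difference of all members, 5.22-fold lower in the mutant. Its product aladin is a WD-repeat protein held at the pore by the membrane nucleoporin Ndc1, and its loss in humans causes triple A syndrome. Aaas read 7.43, 7.45, 6.61 and 6.54 across mutant arrays 1 to 4 and 9.82, 9.13, 9.43 and 9.19 across control arrays 1 to 4. Every mutant array lay below every control array, by more than the range within either group. The group means were 7.01 ± 0.50 and 9.39 ± 0.31 (SD, n = 4), and the log2 difference was -2.38 (SE 0.26, adjusted p = 0.0035 in limma). Aaas passed the threshold without any single array, with a highest adjusted p of 0.016, and missed it without control arrays 1 and 3 together (difference -2.15, adjusted p = 0.065). The gene is represented by 1 probe set, so no other probe set bears on this fall.

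The 3 membrane nucleoporins measured beside Aaas did not pass. Ndc1, the anchor of aladin, differed by 0.05 (SE 0.13, adjusted p = 0.88), from a mean of 8.52 in control to 8.57 in mutant arrays. Pom121, an integral membrane nucleoporin, differed by 0.36 (SE 0.21, adjusted p = 0.39). Nup210, the glycoprotein of the pore membrane, was dim at 4.02 and 3.96 in mutant and control.

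In the outer ring, or Y complex, which coats both faces of the pore, 8 genes were measured, of which Nup43 rose and Nup133 fell. Nup43 encodes a WD-repeat protein of this complex. It read 9.61, 9.09, 9.32 and 9.28 across mutant arrays 1 to 4 and 7.84, 8.45, 8.20 and 8.67 across control arrays 1 to 4. The lowest mutant array, array 2, lay above the highest control array, array 4. The means were 9.33 ± 0.22 and 8.29 ± 0.36 (SD, n = 4), a rise of 1.04 (SE 0.19, adjusted p = 0.027) or 2.05-fold. That probe set is of a type shared among related transcripts, and the other probe set of Nup43 differed by 1.05 with no overlap between groups (adjusted p over all probe sets 0.054, and 0.010 with the replicate block). Nup43 passed without mutant array 2 (adjusted p = 0.019) or control array 4 (0.035). It lay between 0.0501 and 0.080 without any 1 of mutant arrays 1, 3 and 4 and control arrays 1, 2 and 3, and at 0.17 without control arrays 1 and 3 together, where the difference was 0.77.

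Nup133, a scaffold member of the Y complex, fell 1.45-fold. It read 10.33, 10.08, 10.14 and 10.20 across mutant arrays 1 to 4 and 10.95, 10.55, 10.66 and 10.73 across control arrays 1 to 4. The groups did not overlap, and mutant array 1 and control array 2 were the closest. Means were 10.19 ± 0.11 and 10.72 ± 0.17 (SD, n = 4), with a difference of -0.54 (SE 0.12, adjusted p = 0.047, and 0.022 with the replicate block). Without any single mutant or control array Nup133 missed the threshold, at adjusted p-values of 0.0615 to 0.127, and leaving out control arrays 1 and 3 gave 0.24. It also missed it with the mean of its probe sets (0.22), a minimum mean of 4 (0.065) and an intensity trend in the fit (0.083). Among its other probe sets, a bright one differed by -0.59 with no overlap and a further one by -0.56 with overlap, while 3 dim ones with means of 2.33 to 2.86 differed by -0.02 to 0.21.

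The other 6 Y complex genes did not pass. Sec13, which also serves the COPII coat of the endoplasmic reticulum, read 9.64 to 9.97 on mutant and 10.05 to 10.54 on control arrays, without overlap (difference -0.52, SE 0.14, adjusted p = 0.073, and 0.045 with the replicate block). Nup160, a scaffold of the long arm of the Y, differed by -0.67 (SE 0.20, adjusted p = 0.10). Seh1l, which is shared with a lysosomal signalling complex, read 4.25 to 5.31 in mutant and 3.94 to 4.13 in control, also without overlap, and differed by 0.55 (SE 0.22, adjusted p = 0.21). Nup37, Nup85 and Nup107 differed by 0.04, 0.36 and 0.11, with overlapping groups. Differences within this complex thus lay on both sides of 0, with Nup43 and Seh1l above and Nup133, Sec13 and Nup160 below.

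The sequences before the transcription starts of the 2 genes that fell are shown so that the motifs found in them can be read in place. They are 250-base windows from RefSeq on GRCm38.p6 that end at the annotated start of the gene. They lie upstream of Nup133 at chr8:123949266-123949515 and of Aaas at chr15:102350760-102351009, both on the minus strand and written 5′ to 3′, with capitals marking matches to the motifs searched.
Nup133: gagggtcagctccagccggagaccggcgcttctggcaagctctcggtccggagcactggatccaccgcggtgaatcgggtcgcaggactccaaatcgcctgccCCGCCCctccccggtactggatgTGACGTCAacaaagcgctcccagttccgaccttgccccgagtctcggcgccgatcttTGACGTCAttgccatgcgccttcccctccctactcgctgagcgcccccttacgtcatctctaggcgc
Aaas: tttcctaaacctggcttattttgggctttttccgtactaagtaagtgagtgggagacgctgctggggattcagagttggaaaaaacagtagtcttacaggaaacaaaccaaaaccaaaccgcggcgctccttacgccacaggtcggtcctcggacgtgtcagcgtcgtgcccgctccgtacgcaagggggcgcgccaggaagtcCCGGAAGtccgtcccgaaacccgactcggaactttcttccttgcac
The Nup133 window holds 2 copies of TGACGTCA, the cAMP response element that the spermatid activator CREM is known to bind, starting 124 and 67 bases before the transcription start, and 1 GC box (GGGCGG on the other strand) starting 147 bases before it. The Aaas window holds 1 match to the ETS motif CCGGAAG, starting 46 bases before the start, and no TGACGTCA. Of the genes that rose, Nup155 also has a window, with 1 CCGGAAG, 2 GC boxes that share a letter and 1 CCAAT. That window is not printed because it ends at a start inside the annotated gene, as does the Ipo8 window, which holds no match. The search covered both strands and also took in CCAAT, the letters TATAAA and the motif of NRF1, and no matches overlap in the 2 windows printed. TGACGTCA occurs in 1.55% of the 32851 windows of the table and at least 2 copies in 0.0304%. Among members it was found for Nup133 and for Nup214, whose difference of 0.20 did not pass. CCGGAAG occurs in 6.91% of all windows and in 17% of the 53 windows of 44 members, and GGGCGG in 32.7% and 66%. The median GC content was 64% for member windows and 52.4% for all windows. A match describes the letters in this window and is not a binding site, and no match says only that the letters are absent from it.

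The inner ring supports the channel from within, and 1 of its 4 measured genes, Nup155, rose. Nup155 links the inner ring to the membrane nucleoporins. It read 8.23, 7.89, 8.18 and 7.94 across mutant arrays 1 to 4 and 7.55, 7.18, 7.57 and 7.38 across control arrays 1 to 4. All mutant arrays lay above all control arrays, and each mutant array exceeded the control array of its number by 0.56 to 0.71. The means were 8.06 ± 0.17 and 7.42 ± 0.18 (SD, n = 4), a rise of 0.64 (SE 0.14, adjusted p = 0.039, and 0.015 with the replicate block) or 1.56-fold. Nup155 passed without mutant array 2 (adjusted p = 0.029), lay between 0.060 and 0.11 without any other single array of either group, and at 0.13 without control arrays 1 and 3. It also missed the threshold with the mean of its probe sets (0.12), median centring (0.055) and an intensity trend (0.13). Its 2 other probe sets were dim, with means of 3.71 and 2.61, and differed by 0.33 and 0.03 with overlap.

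Nup93, the inner ring scaffold to which Nup188 and Nup205 bind, showed a larger but more variable difference. It read 7.91, 7.50, 6.98 and 6.65 across mutant arrays 1 to 4 and 6.24, 5.60, 6.42 and 5.22 across control arrays 1 to 4. The groups did not overlap, and the difference of 1.39 (SE 0.34) had an adjusted p of 0.059, or 0.017 with the replicate block. Without control arrays 1 and 3, the Nup93 difference was 1.85. Nup188 and Nup205, the large partners of Nup93, differed by -0.05 (SE 0.16) and -0.24 (SE 0.16) and did not pass. A dimmer Nup205 probe set, with a mean of 7.68, differed by -1.32 (SE 0.62) with overlap. Its adjusted p over all probe sets was 0.36 in limma, and 0.053 with the replicate block. The dimmer Nup188 probe set differed by -0.61 (SE 0.55), also with overlap.

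**Figure D2:**
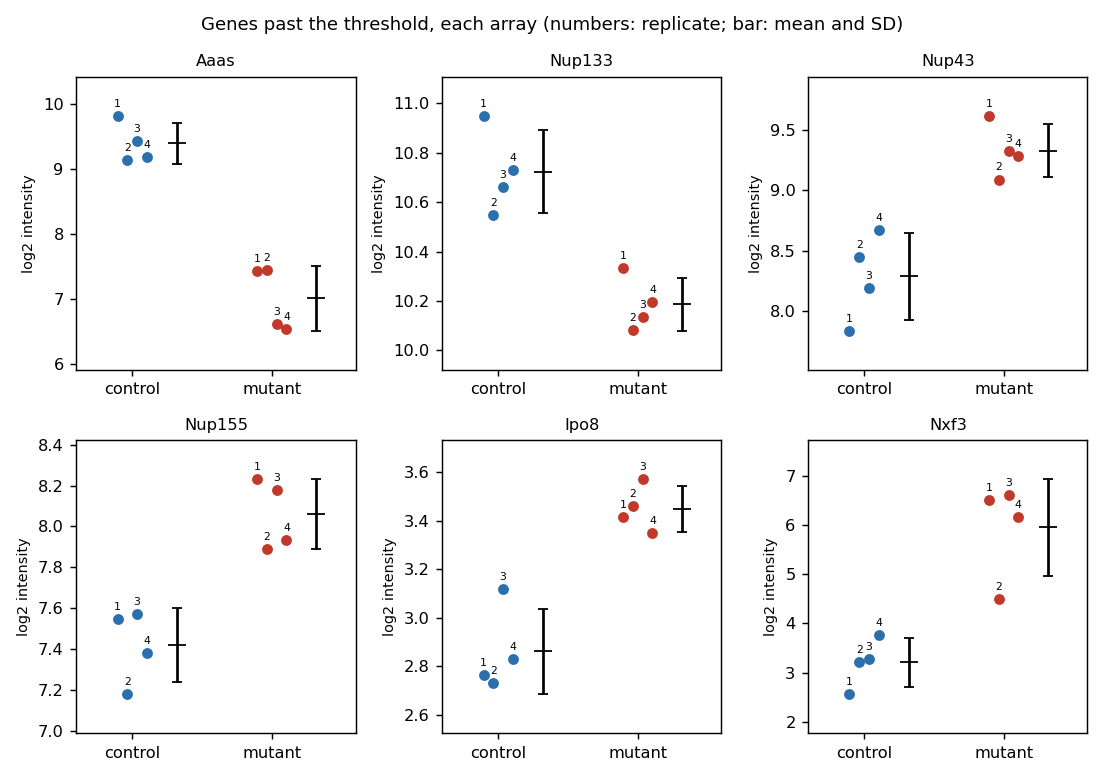
Log2 intensity on each of the 8 arrays (points, numbered by replicate) for the 5 members that passed the threshold and for the related mRNA export gene Nxf3, with bars for the mean and SD of 4 control and 4 mutant arrays and a separate scale in each panel. Mutant and control points do not overlap in any panel, and among the 5 members the means lie farthest apart for Aaas (7.01 and 9.39).

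No gene of the central channel passed among 3 measured in limma, with 0 higher and 1 lower at unadjusted p under 0.05. Nup62, which forms the channel complex with Nup54, read 11.61, 11.44, 11.47 and 11.57 on mutant arrays and 12.13, 11.83, 11.83 and 11.90 on control arrays. The groups did not overlap, and the difference was -0.40 (SE 0.11, adjusted p = 0.086, and 0.051 with the replicate block). Its brightest probe set is of a type with probes that also match other sequences. Over all probe sets, 3 further Nup62 probe sets differed by -0.51 to -0.60, without overlap and with adjusted p-values of 0.032 to 0.047 with the replicate block, and a dim one differed by 0.06. Nup54 differed by 0.84 (SE 0.37, adjusted p = 0.26), with mutant arrays spread from 5.31 to 7.27 and control arrays from 5.19 to 5.53. Nup98, a repeat nucleoporin that also binds genes within the nucleus, read 10.77, 10.22, 10.11 and 9.77 on mutant and 11.01, 10.27, 10.78 and 9.96 on control arrays. Its difference of -0.29 (SE 0.27, adjusted p = 0.62) lay within the spread and was 0.10 without control arrays 1 and 3.

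On the cytoplasmic side, 0 of 4 genes passed, also at unadjusted p under 0.05 in limma. Nup214, a docking site for export complexes, read 10.40, 10.02, 10.02 and 10.03 on mutant and 10.36, 9.97, 9.76 and 9.57 on control arrays, a difference of 0.20 (SE 0.18, adjusted p = 0.60). Array 1 was the highest array of both groups. Its partner Nup88 differed by -0.14 (SE 0.22) and Rae1, an mRNA export factor that binds Nup98, by 0.05 (SE 0.20). Of the nuclear basket, 0 of 2 genes passed, with 1 higher at unadjusted p under 0.05. Nup153, which anchors the basket, read 10.70, 10.95, 10.67 and 10.79 on mutant and 10.22, 10.81, 10.17 and 10.43 on control arrays, a difference of 0.37 (SE 0.16, adjusted p = 0.23). Control array 2 overlapped the mutant arrays, and control arrays 1 and 3 were the lowest, without which the difference was 0.16. Nup50, which speeds the release of importin alpha, had means of 12.04 ± 0.12 and 12.14 ± 0.08 (SD, n = 4), a difference of -0.10 (SE 0.11, adjusted p = 0.67) with overlapping groups.

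Ranbp2 and Tnpo1 gave different answers from different probe sets. Ranbp2, also called Nup358, is the large filament nucleoporin that binds Ran and acts in SUMO conjugation. Its brightest probe set read 9.74 to 10.33 on mutant and 9.89 to 10.19 on control arrays, with a difference of -0.02 (SE 0.15, adjusted p = 0.96). A dimmer Ranbp2 probe set read 7.26, 7.0, 6.10 and 6.99 on mutant and 4.68, 5.52, 4.45 and 5.31 on control arrays. All 4 mutant arrays exceeded all 4 control arrays there, by 1.84 on average (SE 0.31, 3.59-fold, adjusted p over all probe sets 0.029). Tnpo1, the import receptor of many RNA-binding proteins, differed by -0.04 (SE 0.15) in its brightest probe set. Its dimmer probe set read 7.20, 5.94, 6.51 and 6.39 on mutant and 5.16, 5.01, 5.01 and 5.15 on control arrays. That probe set rose by 1.43 (SE 0.23, 2.69-fold, adjusted p over all probe sets 0.027), again without overlap.

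An F test of the difference between probe sets of the same gene, chosen after the values were seen, covered 30 members with several probe sets of a mean of at least 4. It called Ranbp2 (adjusted p = 0.037) and Tnpo1 (0.043), against 0.906% of the 2870 genes tested. With the replicate block both were called (0.0050 and 0.010), against 5.89% of genes. Without single arrays, Ranbp2 was called without mutant array 3 or control array 2 and lay between 0.024 and 0.14 over all 8, and Tnpo1 was called without mutant array 1 or 2 and lay between 0.018 and 0.18. Without control arrays 1 and 3, the adjusted p-values were 0.36 and 0.33. Which part of each transcript these probe sets read was not given. At probe set level, 6 of the 144 member probe sets changed, against 1.42% of all probe sets. Of these, 4 rose (of Nup43, Ipo8, Ranbp2 and Tnpo1), against 0.717%, and 2 fell (of Aaas and Ipo11), against 0.702%. With the replicate block 11 passed as higher, against 3.92%, and 9 as lower, against 2.5%. The Ipo11 probe set that fell is a dim one, with means of 3.36 and 4.15 (difference -0.79, SE 0.16, adjusted p = 0.049), and the brighter Ipo11 probe set differed by 0.20 with overlap.

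**Figure D3:**
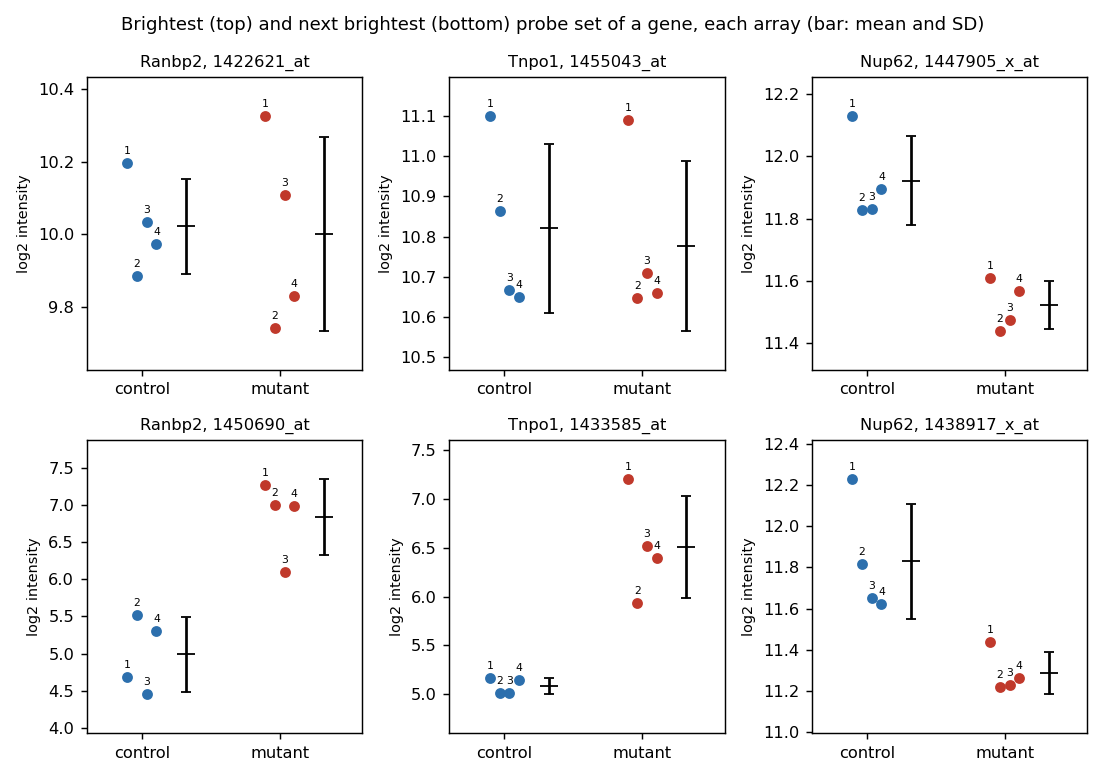
Log2 intensity on each array (points, numbered by replicate) for the brightest and next brightest probe sets of Ranbp2, Tnpo1 and Nup62, with bars for the mean and SD of 4 control and 4 mutant arrays and a separate scale in each panel. The brightest probe set of Ranbp2 and of Tnpo1 overlaps between groups (differences -0.02 and -0.04) and the dimmer one is higher on all mutant arrays (1.84 and 1.43), whereas both Nup62 probe sets are lower on all mutant arrays (-0.40 and -0.54).

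None of the 5 importin alpha genes passed in limma, with 1 higher and 0 lower at unadjusted p under 0.05. These adaptors recognise the classical nuclear localisation signal and bind importin beta. Kpna2, the subtype abundant in meiotic and early haploid germ cells, read 12.92, 13.03, 12.85 and 12.94 on mutant and 13.21, 13.13, 12.88 and 13.14 on control arrays, a difference of -0.15 (SE 0.11, adjusted p = 0.50). Kpna1 had means of 10.29 ± 0.41 and 10.30 ± 0.33 and Kpna6 of 10.56 ± 0.32 and 10.71 ± 0.13 (SD, n = 4), differences of -0.01 and -0.15. The groups overlapped for each of these 3 genes. Of the 4 other Kpna1 probe sets, one of a type shared among transcripts read 5.53 to 6.35 on mutant and 6.40 to 7.14 on control arrays (difference -0.75, SE 0.21, adjusted p over all probe sets 0.13, and 0.022 with the replicate block). The remaining Kpna1 probe sets differed by -0.28 to 0.00064, with overlap.

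Kpna3 and Kpna4 form one subfamily of importin alpha. Kpna3 read 5.61, 5.64, 4.29 and 4.66 on mutant and 4.04, 4.15, 4.07 and 4.47 on control arrays, a difference of 0.86 (SE 0.30, adjusted p = 0.16). Mutant arrays 1 and 2 were high, and mutant arrays 3 and 4 lay near the control arrays. A second Kpna3 probe set differed by 1.55 without overlap (adjusted p over all probe sets 0.073, and 0.022 with the replicate block). Kpna4 read 10.43, 10.27, 9.80 and 10.36 on mutant and 9.27, 10.66, 8.91 and 10.71 on control arrays. Control arrays 1 and 3, which stood apart in RNA quality, were its lowest arrays, and the Kpna4 difference of 0.33 (SE 0.41, adjusted p = 0.72) was -0.47 without them.

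**Figure D4:**
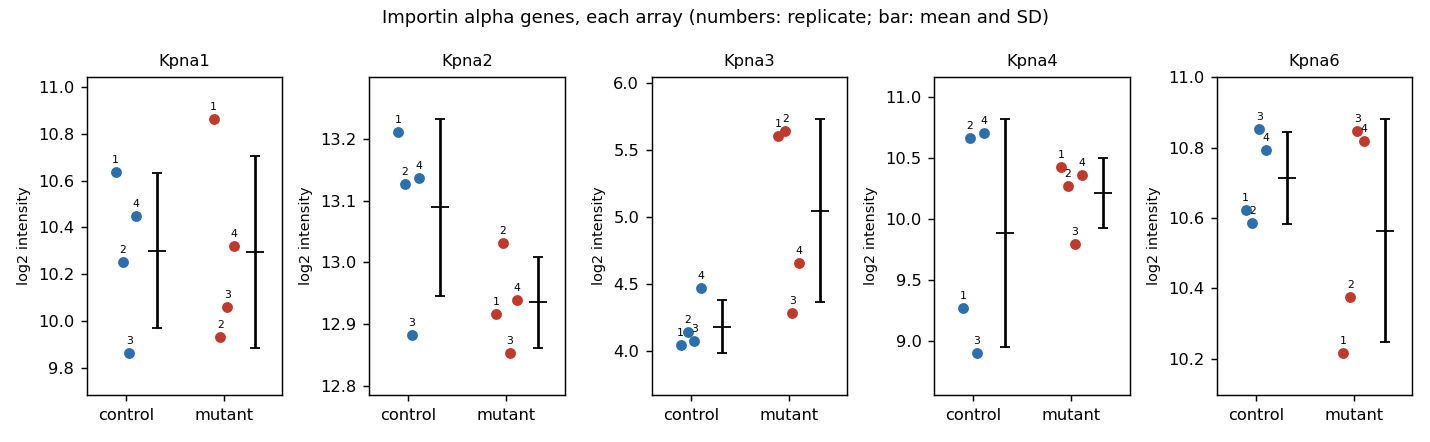
Log2 intensity on each array (points, numbered by replicate) for the 5 importin alpha genes, with bars for the mean and SD of 4 control and 4 mutant arrays and a separate scale in each panel. Mutant and control arrays overlap for all 5 genes, and control arrays 1 and 3 are the lowest of Kpna4 (9.27 and 8.91).

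Of the 11 import receptors of the importin beta family, Ipo8 rose and none fell. Ipo8 carries SMAD and Argonaute proteins among other cargo. It read 3.41, 3.46, 3.57 and 3.35 across mutant arrays 1 to 4 and 2.76, 2.73, 3.12 and 2.83 across control arrays 1 to 4. The groups did not overlap, and all values lay close to the array medians of 3.10 to 3.14, so Ipo8 was dim in every preparation and no fold change is given. The means were 3.45 ± 0.09 and 2.86 ± 0.18 (SD, n = 4), a rise of 0.59 (SE 0.12, adjusted p = 0.037, and 0.021 with the replicate block). Ipo8 passed without mutant array 2 (adjusted p = 0.046) or control array 3 (0.034), lay between 0.059 and 0.11 without any other single array, and at 0.12 without control arrays 1 and 3. It missed the threshold with the mean of its probe sets (0.12) and median centring (0.11), and was left out by a minimum mean of 4. Its 2 other probe sets differed by 0.17 and -0.07, with means of 2.70 and 2.44.

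Ipo7, the close paralogue of Ipo8, differed by more but with a wider spread. It read 7.79, 7.10, 6.72 and 6.28 on mutant and 5.66, 5.96, 5.74 and 5.79 on control arrays. Every mutant array was above every control array, with a difference of 1.18 (SE 0.28, adjusted p = 0.057, and 0.036 with the replicate block). Kpnb1, importin beta itself, read 9.68, 10.20, 9.17 and 8.67 on mutant and 10.05, 9.39, 9.0 and 9.01 on control arrays, a difference of 0.07 (SE 0.35, adjusted p = 0.94) within a wide spread. Ipo4, Ipo5 and Ipo9, which carry histones among other cargo, differed by 0.01 (SE 0.15), 0.06 (SE 0.13) and 0.04 (SE 0.30). Tnpo3, the importer of SR splicing factors, differed by 0.40 (SE 0.28, adjusted p = 0.48), Tnpo2 by 0.30 (SE 0.47), Ipo11 by 0.20 (SE 0.21) and Ipo13 by -0.17 (SE 0.22). The groups overlapped for each of these 8 genes, Kpnb1 included.

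None of the 7 export receptors passed in limma, with 2 higher and 1 lower at unadjusted p under 0.05, and 3 passed with the replicate block. Xpo5, the exporter of microRNA precursors, read 8.15, 7.80, 7.80 and 7.93 on mutant and 8.84, 8.23, 8.55 and 8.67 on control arrays. The groups did not overlap (difference -0.65, SE 0.15, adjusted p = 0.055, and 0.018 with the replicate block), and the probe set is of a type shared among transcripts. Xpo1, the main exporter of proteins with a leucine-rich signal, read 9.93, 10.20, 9.47 and 8.94 on mutant and 9.35, 9.10, 8.89 and 8.65 on control arrays. These groups overlapped, yet each mutant array was above the control array of its number, by 0.29 to 1.10, and the difference of 0.64 (SE 0.27) had an adjusted p of 0.23, or 0.044 with the replicate block.

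Xpo7, an exporter with a broad range of cargo, was also higher in each of the 4 pairs. It read 8.87, 7.93, 8.35 and 6.86 on mutant and 7.38, 6.32, 7.62 and 6.26 on control arrays, a difference of 1.11 (SE 0.46, adjusted p = 0.23, and 0.023 with the replicate block). Arrays numbered 1 and 3 were high in both groups. Cse1l, which returns importin alpha to the cytoplasm, read 10.07, 9.65, 9.53 and 9.61 on mutant and 9.61, 9.09, 9.50 and 9.40 on control arrays, a difference of 0.31 (SE 0.16, adjusted p = 0.33) with overlap at the edges. Xpot, the exporter of transfer RNA, differed by 0.27 (SE 0.18), Xpo4 by -0.02 (SE 0.18) and Xpo6, the exporter of actin with profilin, by -0.04 (SE 0.12).

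In the Ran cycle, 0 of 3 genes passed, with 1 higher at unadjusted p under 0.05 in limma. Ran read 14.40, 14.32, 14.26 and 14.33 on mutant and 14.46, 14.30, 14.11 and 14.38 on control arrays, a difference of 0.02 (SE 0.11, adjusted p = 0.96) whose sign turned under median centring (-0.01). Of its 6 probe sets, 5 are of a type with probes that also match other sequences, and the sixth differed by 0.25 (SE 0.21) with overlap. Ranbp1, which helps the GTPase activator Rangap1 to act on Ran, read 11.43, 11.81, 11.51 and 11.52 on mutant and 10.88, 11.22, 11.13 and 11.20 on control arrays. All mutant arrays were above all control arrays, and the difference was 0.46 (SE 0.13, adjusted p = 0.090, and 0.041 with the replicate block). Rangap1 differed by -0.04 (SE 0.20). Of the mRNA export receptor, Nxf1 read 11.47, 11.12, 11.20 and 11.31 on mutant and 12.07, 11.32, 11.40 and 11.51 on control arrays, and its partner Nxt1 differed by -0.11 (SE 0.14). Nxf1 was lower in each pair, by 0.20 to 0.61, and its difference of -0.30 (SE 0.18, adjusted p = 0.39) did not pass with the replicate block either (0.16).

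A further 45 genes of the same pathway were listed, of which 39 were measured: other nucleoporins, adaptors, the wider Ran and SUMO cycle, and mRNA export factors. In limma 1 of them rose and 0 fell, which is 2.56% against 3.71% of all genes. At unadjusted p under 0.05, 7 were higher and 5 lower, against 2002 and 1667 of the 18193 genes. With the replicate block 5 passed as higher and 1 as lower, which is 15.4% against 11.5%. Of the 39, 6 had a mean below 4, and among the 8998 genes with a mean of at least 4, 1817 passed with the block. The gene that rose was Nxf3, a relative of Nxf1 on the X chromosome that has been described in mouse Sertoli cells. It read 6.52, 4.50, 6.61 and 6.17 on mutant and 2.56, 3.21, 3.28 and 3.77 on control arrays, with no overlap. The difference was 2.75 (SE 0.46, adjusted p = 0.019), and no fold change is given because its control arrays lay near the array medians. Mutant array 2, the lowest mutant array of Nxf3, was also the lowest mutant array of the Sertoli cell markers, at 5.95. Nxf3 missed the threshold without mutant array 3 (0.064), control array 1 (0.058) or control array 3 (0.053), and at 0.17 without control arrays 1 and 3 together. The part of Sertoli cell RNA in the difference of Nxf3 was not tested.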

How the data were processed

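Groups and replicate numbers came from the sample titles. The authors deposited one table of log2 values, an intensity for each probe set on each array, already normalized. GCRMA, which corrects background by probe sequence, and limma are the tools that the submitters' processing notes list. What each did, and in which version, is not given in the sources used here. Cells were separated on an albumin gradient, and RNA was extracted with Trizol and labelled as biotin cRNA, per the labels' protocols. No other background correction was tried, since scanner files were not used. GCRMA shrinks differences of dim probe sets. Arrays have no sequencing depth, and their number limits the precision.

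Of 45101 probe sets, 64 Affymetrix controls were left out. The platform annotation gave 1 gene for 34945 of the rest, several genes for 932 and none for 9160, and symbols were brought up to date through Entrez identifiers in a GRCm38.p6 gene table, which held 34741 of them. Of the lists, Nup42 and Nup58 were matched through older symbols. Differences were fitted over 18193 genes with limma 3.58.1 in R 4.3.3 (group as the only term, moderated variances, both directions), with Benjamini-Hochberg adjustment over all genes and a threshold of 0.05. A gene rose or fell when it passed. The same fit over 45037 probe sets gave the values adjusted over all probe sets. In the fit without the block, p-values rest on the spread between arrays of a group, each of a pool of animals. That spread is not separated from what the replicate number marks or from RNA quality. With the block they rest on the spread of the 4 pair differences. The limma fit without the block and the test between probe sets were run on simulated data whose arrays were independent, without the pairing. The other fits were not tested in this way.

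Same-numbered arrays deviated together from their group means over 7453 genes with a mean of at least 5, with correlations of 0.36, 0.45, 0.59 and 0.50 for the 4 pairs. The number was therefore taken as a pairing in an alternative fit, the replicate block, and the labels do not say what it marks. The fit behind the calls of rose and fell leaves the number out. Values with the replicate block stand beside the members' results whose call it changes.

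The members, roles and gene lists, and the rule for genes given in full, were chosen with earlier results of these data known. That rule takes every member past the threshold, the member with the smallest adjusted p in a role where none passed, and a fixed set of importins, Ran, exportins and nucleoporins. Nup93, Sec13, Ipo7, Xpo7 and the other members have values in part. Promoter windows are from RefSeq and cover 44 members. Alternatives were the block, single arrays left out, control arrays 1 and 3 left out, the mean of all probe sets, a minimum mean of 4, repeated quantile normalization, median centring, an intensity trend and array weights.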

Additional observations from a re-analysis of the deposited data

Results flagged for a closer look

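Nup214 on mutant array 1 read 10.40, against 10.02 to 10.03 on the other 3 mutant arrays, so that the gap made up 0.987 of the range of the group, above Dixon's critical value for 4 arrays. It was the 1 such group among 50 tested, where chance alone gives about 1 in 20. The control array of the same number was also the highest control array of Nup214, at 10.36.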

How the results depend on the processing

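Counts moved with the setting, and so did some differences. Members risen and fallen, 3 and 2, became 8 and 4 with the replicate block, 6 and 6 with array weights, 1 and 1 with the mean of all probe sets, and 0 and 0 without control arrays 1 and 3. They were 3 and 3 with repeated quantile normalization, where the risers were Nup43, Nup155 and Ipo8. With median centring they were also 3 and 3, and the risers were Nup43, Nup93 and Ipo7. Members fallen were 1 with a minimum mean of 4 and 1 with an intensity trend. Without single arrays, members risen ranged from 0 to 3 and members fallen from 1 to 2. The other transport genes, with 1 risen and 0 fallen, gave 5 and 1 with the block, 4 and 2 with array weights, and 0 risen without control arrays 1 and 3. Risen other transport genes were 2 with the minimum mean, 3 with quantile normalization, 3 with centring and 2 with the trend, and without single arrays 0 to 2 rose and 0 to 3 fell. Member probe sets risen and fallen, 4 and 2, became 11 and 9 with the block. Members with differing probe sets, 2, became 0 without control arrays 1 and 3, and 0 to 1 without single arrays. Over all genes, 675 calls became 2100 with the block, 1655 with array weights and 68 without control arrays 1 and 3. They were 601 with the mean of all probe sets, 1040 with repeated quantile normalization, 915 with median centring and 856 with the intensity trend. With a minimum mean of 4 they were 780 of 8998 genes, and without single arrays 199 to 1131. Of the 53 members, 26 had the other sign under at least 1 alternative, and none of these had passed. Among those given in full, signs turned without control arrays 1 and 3 for Kpna4 (-0.47), Nup98 (0.10), Ran (-0.012) and Ranbp2 (0.072), with the mean of all probe sets for Nup153 (-0.040), Nup214 (-0.015), Nup50 (0.046), Nup98 (0.031) and Ranbp2 (0.47), with array weights for Kpna6 (0.016), Kpnb1 (-0.092), Ran (-0.0036) and Ranbp2 (0.019), and with centring for Ran (-0.0077). Without single arrays, Kpna1 ranged from -0.20 to 0.11, Kpnb1 from -0.19 to 0.32, Ran from -0.052 to 0.066 and Ranbp2 from -0.13 to 0.066. The cause of these moves was not tested. Dim probe sets, Ipo8 among them, limit what a difference near the floor can show.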

Other observations

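The sign of the differences varied with the level of the members, a split chosen after the values were seen. Of the 17 members with a mean of at least 4 and under 9, 15 had a positive difference, which is 88.2%, against 54.8% of the 5192 genes in that range. Their median difference was 0.40, against 0.08. Of the 34 members with a mean of at least 9, 14 had a positive difference, which is 41.2%, against 43.1% of 3806 genes, and the median was -0.03, against -0.05. The 2 members of the lower range with a negative difference were Aaas and Xpo5. No test of this split was made.

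Among the wider mRNA export genes, the helicase Ddx39b, the adaptor Alyref and the factors Sarnp and Eny2 passed as higher with the replicate block and not in the fit without it. Over all 16 alternatives, Ddx39b passed in 7, Sarnp in 4, and Alyref and Eny2 in 1 each. Their differences were 1.0, 1.10, 1.04 and 0.73, and each had the same sign in all 4 pairs. The testis-expressed pore membrane gene Pom121l2 passed as lower with the block.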
